A study of Mus musculus with 12 samples.

Results

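The resting state of the adult mouse cochlea was described from 4 RNA-seq libraries, replicates 1 to 4 of the group held at ambient sound, out of 12 libraries in the series. They were chosen by the sound level in their labels and by no measured value, and the 8 libraries from animals in louder noise were not used. The mice were of the FVB/NCrl strain, an inbred albino line, aged 60 days, and sat awake for 30 minutes at 70 dB SPL (sound pressure level in decibels) before the cochleae were taken straight into Trizol. The labels name no other allele or agent. They do not say whether a library holds 1 animal or a pool, nor the ear taken, so the spread between libraries may be partly technical. Each value below is a mean ± SD over these 4 libraries (n = 4) unless all 4 are given, and with 1 group there is no contrast and no test.

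The cochlea turns sound into nerve signals in the organ of Corti, where inner hair cells release glutamate onto spiral ganglion neurons and outer hair cells amplify the vibration. The stria vascularis of the lateral wall pumps potassium into the endolymph and sets up the endocochlear potential that drives the hair cells. Fibrocytes and supporting cells, joined by gap junctions, recycle that potassium, and the whole organ lies in the bony otic capsule, whose marrow, nerve and middle ear neighbours are easily taken along in a dissection.

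Total counts were 41218443, 42317781, 34557999 and 31141706 in replicates 1 to 4. Counts were scaled to counts-per-million (CPM) with TMM factors, and levels of different genes were compared only after division by exon length, as a length-scaled level in transcripts-per-million (TPM). Of 35496 genes in the table, 15690 (44.2%) had at least 1 CPM in all 4 libraries, of which 14537 were protein-coding, 826 long non-coding RNA genes and 260 pseudogenes. A further 4108 genes had no count in any of the 4. The table held 19089 protein-coding genes, so 14537 of 19089 is the share to set beside each count of list members at 1 CPM. The floor of 3 counts stood at 0.0716 to 0.0955 CPM, which covers counting error only. As a background for counts of list members, replicates 1 to 4 were the highest library in 27.5%, 20.7%, 27.01% and 24.8% and the lowest in 25.1%, 22.7%, 22.1% and 30.04% of the 13350 genes with a mean of at least 5 CPM.

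The 7 genes used as cochlear markers ran from among the highest genes of the table to close to the floor. Coch, which encodes cochlin, the main non-collagen protein of the cochlear matrix (ENSMUSG00000020953, chr12:51593341-51605771 on GRCm38), had 6289.6, 6786, 7998 and 6908 CPM in replicates 1 to 4 and a length-scaled level of 6664 ± 696 TPM, the rank of 14 among all genes (6 by CPM). Replicate 3 was highest and the other 3 lay closer together. Otos, which encodes otospiralin of the fibrocytes (ENSMUSG00000044055, chr1:92644218-92648841), had 864, 873, 744 and 882 CPM, at rank 120 by length-scaled level. Gjb2, the connexin 26 gene of the supporting cell and fibrocyte gap junctions (ENSMUSG00000046352, chr14:57098600-57104702), had 755, 725, 776 and 721 CPM, at rank 104. Otos was lowest in replicate 3 and level in the other 3, and Gjb2 was level in all 4, with coefficients of variation (CV, the SD as a percent of the mean) of 7.77% and 3.53%.

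The other 4 markers were lower. Otof, whose product otoferlin is the calcium sensor of transmitter release in inner hair cells (ENSMUSG00000062372, chr5:30367062-30461932), had 47.3, 40.01, 38.02 and 38.5 CPM, at rank 8571 by length-scaled level. Kcnq1, the potassium channel of strial marginal cells (ENSMUSG00000009545, chr7:143106362-143427042), had 30.9, 28.3, 26.7 and 27.5 CPM, at rank 7037. Tecta, the gene of the tectorial membrane protein alpha-tectorin (ENSMUSG00000037705, chr9:42329619-42399929), had 15.1, 9.29, 13.5 and 14.3 CPM, at rank 13041. Slc26a5, the gene of prestin, the motor protein of outer hair cells (ENSMUSG00000029015, chr5:21810655-21865604), had only 10, 6, 12 and 9 reads, or 0.23999, 0.143, 0.3504 and 0.287 CPM. All 4 of its values lay above the floor of 3 counts but below 1 CPM, so 6 of the 7 markers reached 1 CPM in every library and prestin in none. In bulk tissue, fewer cells of a type and less RNA per cell cannot be told apart.

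Transcripts of mitochondria, red cells, neutrophils and fibrocytes led the length-scaled ranks. The 36 genes of the mitochondrial genome took 5.36 ± 0.250% of counts, haemoglobin genes 1.84 ± 0.170%, 82 cytosolic ribosomal protein genes 2.76 ± 0.161% and 44 collagen genes 1.66 ± 0.0883%. The highest gene was mt-Co1, a subunit of cytochrome oxidase, at 37179 ± 2249 TPM, followed by Hba-a1 (alpha globin) at 30907 ± 2083 TPM and Hbb-bs (beta globin) at 26029 ± 3260.3 TPM. Reads of the near-identical alpha globin copies Hba-a1 and Hba-a2 may be split between them, so their separate levels are uncertain. Of nuclear genes outside the globins, Ptgds, which makes prostaglandin D2, was highest at 13468 ± 975 TPM, followed by S100a9, a calcium-binding protein of neutrophils, at 11378 ± 1004 TPM.

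Below these came Coch and then Apod, an apolipoprotein of connective tissue and glia, at 6281 ± 478 TPM. S100a8, the partner of S100a9, stood at 5673 ± 1082 TPM, the neutrophil granule gene Ngp at 5008 ± 198 TPM and the translation factor gene Eef1a1 at 4761 ± 251 TPM. Acta1, the actin of skeletal muscle, reached 4378 ± 1168 TPM, and S100b, a calcium-binding protein of glia, reached 3914 ± 252 TPM. Col1a1, the bone collagen chain, stood at rank 7 by CPM and at rank 21 by length-scaled level. Thus, of the 30 genes highest per length, 3 were globin genes and 5 were genes of neutrophils and other myeloid cells (S100a9, S100a8, Ngp, Lyz2 and Camp). Gm23935, a gene of 57 bases at rank 13, was highest in replicate 1, which had 366 CPM against 51.2 to 76.5 CPM in the others. The 10 highest genes by CPM held 8.45 ± 0.137% of counts and the 1000 highest 46.3 ± 0.565%. The sum of mean CPM reached 50% at 1245 genes and 90% at 7528 genes.

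**Figure D1:**
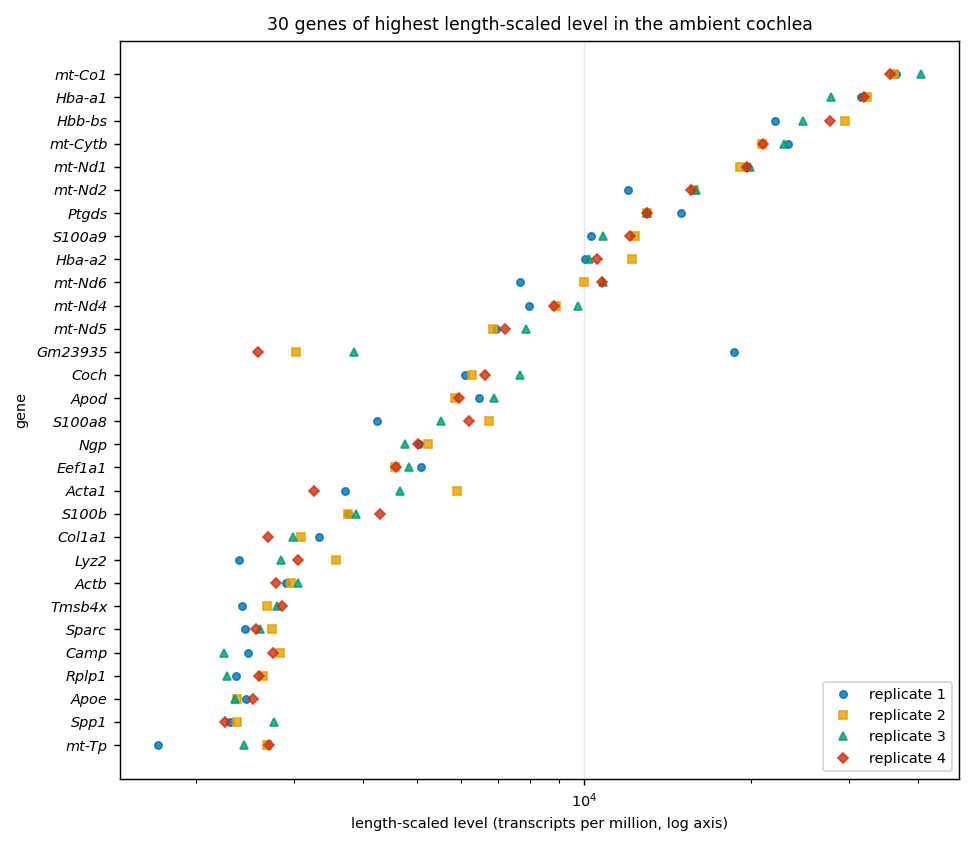
Length-scaled level (TPM, log axis) of the 30 genes with the highest mean, with 1 symbol per ambient library. The 4 symbols of most genes lie close together, while Gm23935 and mt-Tp set replicate 1 apart and Acta1 runs highest in replicate 2.

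Hair cell genes were present at low levels and differed little between libraries in their sum. Of 26 listed hair cell genes, 25 had at least 1 CPM in all 4 libraries, the exception being prestin, and the median length-scaled level was 9.19 TPM. Their summed level was 1188, 1178, 1139.8 and 1156 CPM in replicates 1 to 4, a ratio of highest to lowest of 1.04. Gene by gene, replicate 1 was highest in 13 of 25, beside 27.5% of genes from 5 CPM. Its median log2 difference from the median of the other libraries was 0.10. Calb2, the calretinin gene, which spiral ganglion neurons also express, made up 50.5% of that sum, at 589 ± 16.96 CPM. Among the genes closest to the hair cell itself, Ocm (oncomodulin, a calcium buffer of outer hair cells) had 16.03, 17.4, 16.6 and 15.5 CPM, and Pou4f3 (a transcription factor that hair cells need to survive) had 10.9, 10.4, 10.6 and 10.8 CPM. Of the mechanotransduction genes, Tmc1 (a channel subunit) had 8.903, 7.16, 9.55 and 7.45 CPM, and Lhfpl5 (its partner) had 6.76 ± 1.42 CPM. The tip-link genes Cdh23 and Pcdh15 had 7.34 ± 0.167 and 2.804 ± 0.533 CPM. The vesicular glutamate transporter Slc17a8 had 4.17 ± 0.2102 CPM and the efferent acetylcholine receptor subunits Chrna9 and Chrna10 had 1.29 ± 0.0948 and 7.32 ± 1.42 CPM. Of the 2 outer hair cell genes, Ocm stood at 63.9 ± 2.26 TPM and Slc26a5 at 0.238 ± 0.0833 TPM, and in every library Ocm was the higher. The annotation and mapping of Slc26a5 were not checked here, so its level is uncertain.

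Supporting cell and tectorial membrane genes stood higher. Of 24 supporting cell genes, 22 had at least 1 CPM in all 4 libraries, with a median of 25.6 TPM and a summed level of 3267, 3149, 3479 and 3361 CPM. S100a1, a calcium-binding protein, led at 1771 ± 97.2 TPM, followed by Gjb2 at 884 ± 42.5 TPM and Gjb6, the connexin 30 gene, at 564 ± 37.1 TPM. The supporting cell transcription factor Sox2 had 20.3, 16.3, 16.6 and 17.2 CPM and Prox1 11.6, 11.3, 10.7 and 13.3 CPM, while the Notch target Hes5 and the growth factor gene Fgf8 were below 1 CPM at 0.237 ± 0.149 and 0.0952 ± 0.0976 CPM. All 12 tectorial membrane and limbus genes passed 1 CPM, led by Col11a2 at 257 ± 37.4 TPM and Ceacam16, a component of the tectorial membrane's striated sheet, at 194 ± 3.55 TPM. The tectorin genes were the lowest of these, Tectb at 5.995 ± 0.307 TPM and Tecta at 5.05 ± 1.08 TPM. Cartilage also contains the collagens of this list, and its genes Acan, Cnmd and Chad were present at 58.7 ± 4.59, 122 ± 8.73 and 203 ± 13.3 CPM. The part of cartilage in those collagen levels was not tested.

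Genes of the stria vascularis were present in all 4 libraries with little spread. All 14 marginal cell genes, 15 intermediate cell and melanocyte genes and 7 basal cell genes had at least 1 CPM in each library, and the summed levels of the lists differed by 1.09, 1.08 and 1.10 times between the highest and lowest library. In marginal cells, Slc12a2, which imports potassium with sodium and chloride, stood at 100.6 ± 2.93 TPM and Kcne1, the partner of Kcnq1, at 39.8 ± 2.01 TPM. Bsnd, a subunit of chloride channels, stood at 8.14 ± 1.41 TPM. In intermediate cells, the potassium channel gene Kcnj10 had 102, 95.7, 107 and 98.5 CPM. The pigment genes Dct, Tyr and Tyrp1 had 216, 252, 246 and 220.04 CPM for Dct, 13.6, 17.4, 15.6 and 15.6 CPM for Tyr and 1.46, 1.22, 2.34 and 2.01 CPM for Tyrp1, in an albino strain whose tyrosinase is inactive. Dct was thus far above the other pigment genes per length, at 113 ± 7.03 TPM against 6.24 ± 0.504 TPM for Tyr and 1.78 ± 0.527 TPM for Tyrp1. Cldn11, the tight junction claudin of basal cells and of myelin, stood at 319.7 ± 13.9 TPM.

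All 20 genes of potassium transport into and around the endolymph had at least 1 CPM in each library. The list's summed level was 6128, 5792, 6145 and 5945 CPM, a ratio of 1.06 between extremes. Pump subunits and connexins were among the highest members, with Atp1b1, of the sodium pump, at 886 ± 40.3 TPM. The chloride and bicarbonate exchanger gene Slc26a4 (pendrin), of the spindle and root cells and outer sulcus, had 80.2, 84.3, 80.4 and 72.2 CPM, and the hair cell potassium channel gene Kcnn2 had 23.3 ± 2.65 CPM. Fibrocyte and limbus genes had the highest median of the 11 cochlear cell type lists, 291 TPM over 18 genes, of which 17 passed 1 CPM. Their summed level was 26246, 25512, 27130.5 and 25147 CPM. Besides Coch, Otos and Ptgds they included Car3 at 1020.1 ± 45.3 TPM, the transporter gene Slc4a11 at 512 ± 44.5 TPM and Otor at 291 ± 28.4 TPM. The transcription factor gene Pou3f4 had 87.6, 74.2, 79.3 and 66.8 CPM.

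Spiral ganglion neuron genes, at a median of 26.3 TPM, and Schwann cell genes, at 62.8 TPM, stood above the hair cell list in level. All 25 ganglion neuron genes had at least 1 CPM in each library, with summed levels of 4033, 3685, 3992 and 4838 CPM. Replicate 4 was highest in 17 of the 25 and replicate 2 lowest in 18, with median log2 differences from the median of the other libraries of 0.22 and -0.23. The neurofilament genes Nefh, Nefl and Nefm had 392 ± 47.6, 286 ± 44.4 and 216 ± 46.9 TPM, and the synaptic gene Snap25 had 309 ± 32.03 TPM. Pvalb, the highest of the list at 1535 ± 235 TPM, also encodes the parvalbumin of fast muscle, and the part of muscle in its level was not tested. The neuronal transcription factor Gata3 had 29.01, 24.7, 25.7 and 20.6 CPM and Pou4f1 had 21.6, 20.3, 23.6 and 29.7 CPM. Calb1, a marker of some afferents, had 46.2, 52.04, 53.8 and 55.1 CPM. Prph, of the unmyelinated afferents, and Th were highest in replicate 4, as given with that library's genes. Schwann cell genes, all 16 above 1 CPM, included S100b, given above, and Pmp22, a protein of peripheral myelin, at 846 ± 220.1 TPM. Their summed level was 7494, 5398, 7412 and 6407 CPM, lowest in replicate 2, and 15 of the 16 genes were lowest in that library. Pmp22, for example, had 819.9, 482, 847 and 631 CPM.

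Some vestibular genes were seen as well. Of 12 matched genes of the balance organs, 10 had at least 1 CPM in all 4 libraries, beside 14537 of 19089 protein-coding genes. Among them were Otop1 and Otol1, genes of the otoconia (the crystals of the saccule and utricle). Otop1 had 14.9, 14.1, 16.001 and 13.03 CPM and Otol1 had 8.95, 9.86, 8.44 and 8.38 CPM. The NADPH oxidase gene Nox3 had 31.5, 26.4, 27.8 and 25.1 CPM. Tmc2, a relative of Tmc1, was below 1 CPM at 0.509 ± 0.106 CPM. Of the roof of the cochlear duct, all 6 Reissner membrane genes were present, with Vmo1 at 95.96 ± 13.97 TPM and Slc26a7 at 22.4 ± 2.26 TPM.

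Genes of bone and bone marrow took large shares of the counts. All 14 osteoblast and osteocyte genes had at least 1 CPM in each library, and their sum was 17062, 18014, 17017 and 15992 CPM, of which Col1a1 made up 40.8%. The bone-specific genes Bglap and Bglap2, near-identical osteocalcin genes whose reads may be split, stood at 2188 ± 149.97 and 2220.01 ± 209 TPM, Ibsp (bone sialoprotein) at 1010.4 ± 172 TPM, and the osteocyte genes Dmp1 and Sost at 273 ± 31.6 and 136 ± 14.3 TPM. Of osteoclasts, all 9 genes were present, with Ctsk at 394 ± 21.9 TPM and Acp5 at 310.03 ± 23.8 TPM. Erythroid genes, 14 of 14 matched, summed to 19931, 23902, 19729.8 and 21852 CPM. Besides globins they included Alas2, which starts haem synthesis in red cell precursors, at 575, 674, 572 and 610.1 CPM, and the erythroid transcription factor Klf1 at 104, 119, 96.4 and 83.1 CPM. Neutrophil genes, 17 of 17, summed to 10518, 13276, 11415 and 11791 CPM and included Elane and Mpo, granule genes of immature neutrophils, at 199, 268, 245 and 220.2 CPM for Elane and 448, 526, 527 and 422 CPM for Mpo.

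The marrow and immune lists did not share 1 order of libraries. Replicate 2 was highest in 12 of 14 erythroid, 14 of 17 neutrophil and 12 of 12 proliferation genes, beside 20.7% of all genes, though by small amounts. Its median log2 difference from the median of the other libraries was 0.23, 0.24 and 0.19 for the 3 lists. Replicate 3, highest in 27.01% of all genes, was highest in 8 of 15 B cell, 10 of 13 T and NK cell, 9 of 15 macrophage and 7 of 9 osteoclast genes, and replicate 1 in 5 of 9 blood stem and progenitor cell genes. Genes of early B cells were also seen, Vpreb3 at 16.3, 23.8, 18.9 and 16.2 CPM, Rag1 at 10.8, 10.1, 10.02 and 7.07 CPM and Dntt at 13.2, 7.69, 14.7 and 8.98 CPM, beside the antibody genes Ighm at 489 ± 97.6 TPM and Igkc at 1726 ± 271 TPM. Platelet and megakaryocyte genes included Ppbp at 1531 ± 144 TPM and Pf4 at 709 ± 51.4 TPM. T and NK cell genes were low, with a summed level of 54.8, 67.9, 68.1 and 58.7 CPM over 13 genes. Mki67, a gene of dividing cells, had 446, 466, 414 and 392 CPM, and all 12 proliferation genes had at least 1 CPM in each library. Macrophage genes, 15 of 15, included C1qa at 201 ± 14.6 TPM and Csf1r at 67.8 ± 6.06 TPM.

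**Figure D2:**
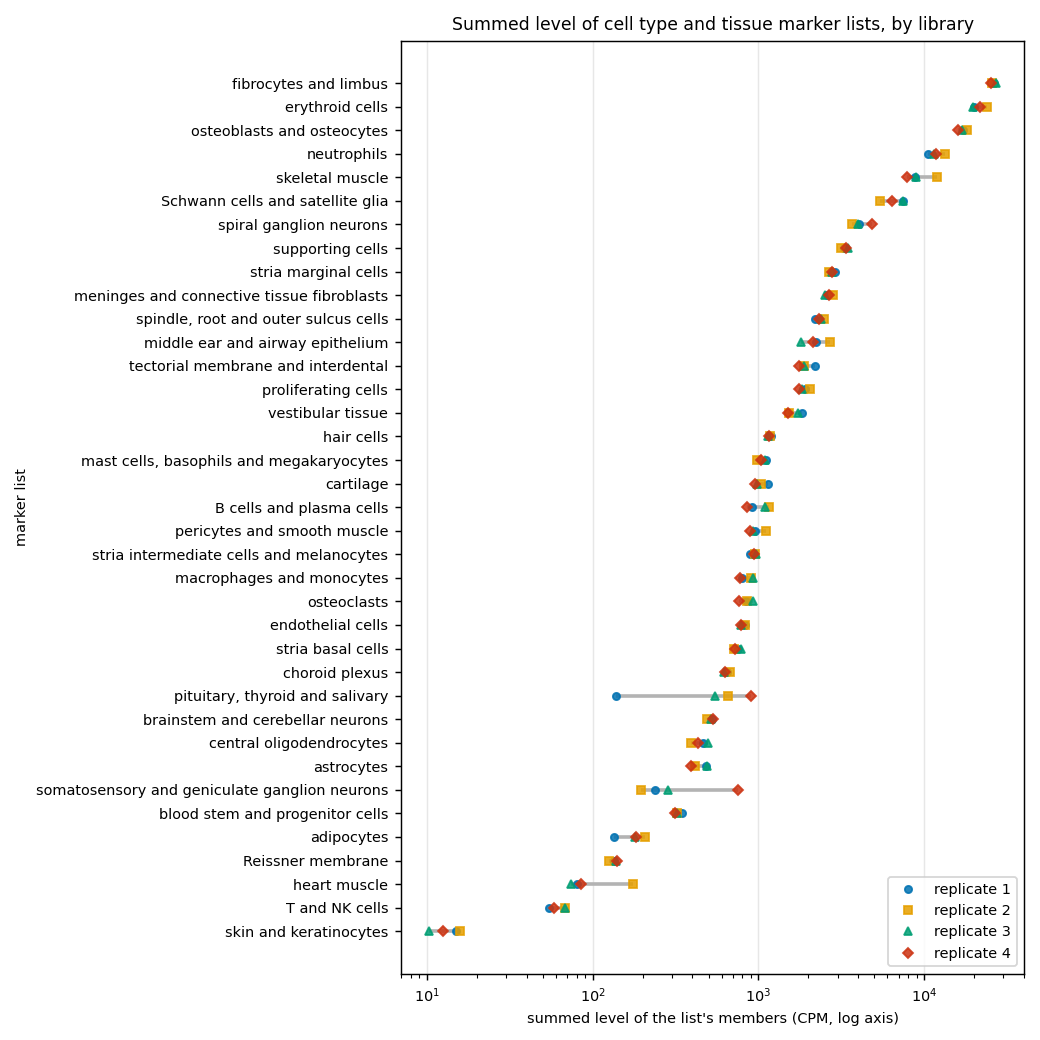
Summed CPM (log axis) of the members of each cell type or tissue marker list, with 1 symbol per ambient library and a grey bar from lowest to highest. Lists differ in size and in how abundant their genes are per cell, so the order shows no cell numbers; the pituitary, sensory ganglion and heart muscle lists have the widest bars, and the hair cell and endothelial lists some of the narrowest.

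Other neighbouring tissues were seen to unequal extents. Of 17 skeletal muscle genes, 16 had at least 1 CPM in all 4 libraries, and their sum was 8799, 11929, 8918 and 7865 CPM. The exception, Tnnc2, had 0.0571 ± 0.0989 CPM, and 592 of its 800 exon bases overlap Ube2c on the opposite strand. The fast myosin genes Myh4 and Myh1 had 879.98, 716, 783 and 696 CPM for Myh4 and 789.5, 978, 714 and 646 CPM for Myh1. Of 16 middle ear and airway epithelium genes, 10 had at least 1 CPM in all 4 libraries. That is below the share of all protein-coding genes, 14537 of 19089. Among the 10 was Bpifa1, a secreted protein of the airway lining, at 849, 1164, 544 and 843 CPM. Foxj1, the master transcription factor of motile cilia, had 30.3, 38.6, 21.2 and 26.4 CPM. Of 63 genes with symbols of motile cilium components (prefixes Cfap, Dnah, Dnai, Rsph, Tekt and Drc, a list added after the data were seen), 50 had at least 1 CPM in all 4 libraries. The airway secretory gene Scgb1a1 was near the floor at 0.0618 ± 0.0715 CPM.

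Genes of brain and skin were seen in part. Of 19 brainstem and cerebellar neuron genes, 11 had at least 1 CPM in each library, a smaller share than 14537 of 19089 protein-coding genes. The highest was Zic2, a transcription factor also of the meninges, at 189 ± 18.9 TPM. Gabra6, a receptor subunit of cerebellar granule cells, had 0, 0.0239, 0 and 0 CPM, Slc6a5, the glycine transporter of brainstem neurons, 0.09599, 0.0239, 0.0876 and 0.0955 CPM, and Gad2, of inhibitory neurons, 0.09599, 0, 0.146 and 0.3503 CPM. Pcp2, a Purkinje cell gene, had no read in any library, although 941 of its 1828 exon bases overlap Pet100. Slc17a7 and Slc17a6, transporters that load glutamate into vesicles in central and peripheral neurons, had 128, 112, 115 and 101.02 CPM for Slc17a7 and 52.3, 52.2, 57.8 and 82.3 CPM for Slc17a6. Of 10 central oligodendrocyte genes, 7 had at least 1 CPM in each library. Mobp had 65.4, 41.96, 65.7 and 55.3 CPM, Mog 7.92, 5.97, 7.39 and 8.41 CPM and Opalin 0, 0.0477, 0.292 and 0.0955 CPM. All 8 astrocyte genes passed 1 CPM, among them Gfap, an intermediate filament gene that Schwann cells can also express, at 122, 93.02, 123 and 82.5 CPM. What part brain tissue had in these levels was not tested. Among skin genes, 2 of 10 passed 1 CPM in all 4 libraries, and Flg and Krt1 had 0.0159 ± 0.0318 and 0.332 ± 0.0554 CPM. Fat genes were low too, with Adipoq at 16.5, 20.9, 19.9 and 18.5 CPM.

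Genes of the hereditary hearing loss list were spread over the whole range of levels. The link of each member to hearing loss in humans was not checked here. Of 110 matched genes, 104 had at least 1 CPM in all 4 libraries, and the other 6 included Grxcr1, Tspear, Slc26a5 and Myo3a. By length-scaled level, 2 lay among the first 100 genes, 8 among the first 1000, 33 among the first 5000, 57 among the first 10000 and 90 among the first 15000. Their median rank was 9399. Their median CV was 9.10% over all 110 with no filter on level. The 8.06% over the 13350 genes with a mean of at least 5 CPM has such a filter, so the 2 medians are not comparable. Coch alone made up 48.6% of their summed CPM. Behind Coch the highest were Actg1, the cytoplasmic gamma actin, at 965 ± 58.6 TPM, then Gjb2 and Gjb6. Among the lowest was Adgrv1, of the ankle links of developing hair bundles, at 0.181 ± 0.0258 TPM.

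Some hearing loss genes had a CV over 25%, taken with no filter on level, and low counts widen the CV. Among them, Foxi1, Atp6v1b1 and Atp6v0a4 belong to the acid-secreting cells of the endolymphatic sac and of other epithelia. Foxi1, their transcription factor, had 3.14, 7.02, 2.803 and 2.48 CPM. Atp6v1b1 and Atp6v0a4, subunits of the proton pump, had 1.75, 3.41, 1.11 and 1.37 CPM for Atp6v1b1 and 1.85, 3.91, 1.37 and 1.497 CPM for Atp6v0a4. All 3 were highest in replicate 2, and the other 3 libraries lay close together. Dcdc2a had 3.41, 2.96, 3.33 and 10.6 CPM, with replicate 4 highest. Lars2, the mitochondrial leucyl-tRNA synthetase, had 384, 177, 229 and 188 CPM. Replicate 1 was highest in Lars2 and also in CT010467.1, annotated as ribosomal RNA. Whether all reads given to Lars2 came from that gene was not tested.

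**Figure D3:**
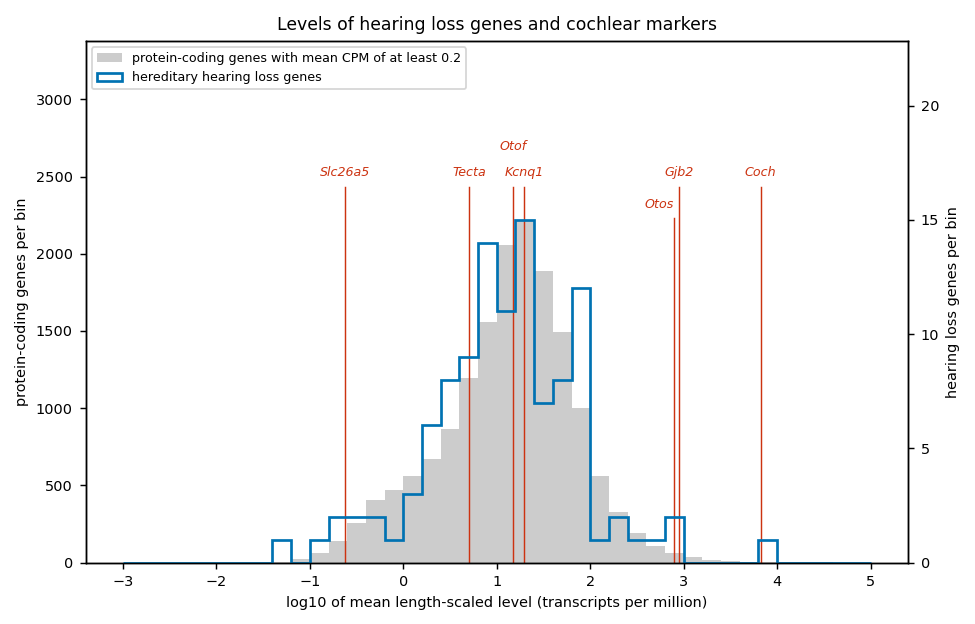
Distribution of the mean length-scaled level (log10 TPM) of protein-coding genes with a mean of at least 0.2 CPM (grey, left axis) and of all 110 hearing loss genes (blue line, right axis), with the 7 cochlear markers as red lines. The hearing loss genes cover the range of other genes, and the markers run from Slc26a5 on the left to Coch on the right.

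Families with several members showed strong preferences for some of them. Of 19 matched connexin genes, 10 passed 1 CPM in all 4 libraries, led by Gjb2 and Gjb6, then Gja1 at 46.1 ± 5.75 TPM, Gjc3, a connexin of myelinating glia, at 31.05 ± 4.46 TPM, and Gjb1 of Schwann cells at 29.2 ± 3.99 TPM, while Gje1 had no read. Of 22 glutamate receptor genes, 16 passed, and of the 16 with a mean of at least 1 CPM, 13 were lowest in replicate 2. The AMPA receptor subunit genes stood at 9.85 ± 1.98 TPM for Gria4, 9.12 ± 1.24 for Gria3, 3.901 ± 0.515 for Gria2 and 1.17 ± 0.249 for Gria1. Grin1, the obligatory NMDA receptor subunit, stood at 9.48 ± 1.39 TPM, and its partners Grin2a and Grin2b were below 1 CPM at 0.303 ± 0.143 and 0.407 ± 0.176 CPM. Of the neurotrophins, which keep the ganglion neurons alive, Bdnf had 4.51, 4.37, 4.29 and 8.66 CPM and Ntf3 had 1.1999, 1.62, 1.197 and 1.27 CPM. Their receptor genes Ntrk2 and Ntrk3 had 93.01 ± 11.6 and 53.05 ± 4.03 CPM. Aqp1 held 88.6% of the aquaporin sum, at 626 ± 27.7 TPM, and Aqp4, of supporting cells, stood at 13.6 ± 0.623 TPM.

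Immediate early genes, which neurons and other cells switch on within minutes of a stimulus, were present at modest levels in this ambient group. All 25 had at least 1 CPM in each library. Fos had 8.52, 15.8, 15.9 and 10.6 CPM, Egr1 57.5, 46.9, 63.97 and 38.9 CPM, Npas4 5.78, 4.75, 5.14 and 3.73 CPM and Arc 3.504, 3.22, 3.88 and 3.66 CPM. Replicate 4 was lowest in 16 of the 25, beside 30.04% of all genes, and replicate 3 highest in 13, beside 27.01%. Xist, expressed from the inactive X chromosome of females, had 468, 449.8, 466 and 440.1 CPM, while the Y-linked Uty had 0, 0, 0 and 3 reads and Eif2s3y 0, 0, 0 and 1. All 4 libraries thus had high Xist and at most 3 reads of either Y-linked gene.

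The 4 libraries agreed closely for most genes. Over 13350 genes with a mean of at least 5 CPM, the median CV was 8.06%, where counting error alone gives 2.77%, and the central 50% of genes lay between 5.43% and 11.7%. The median CV was 12.6% for genes at 5 to 10 CPM and 6.60% for the 60 genes above 1000 CPM. Only 94 genes had a CV over 50%. Pearson's r of log2 CPM between pairs of libraries was 0.980 to 0.989, as a description over genes, and every pair differed by more than counting noise (chi-square per degree of freedom 11.9 to 18.8). No pair was therefore merged as a repeat deposit of 1 library, although repeat libraries of 1 sample could also differ by more than counting noise. The least variable genes were Aplp2, a relative of the amyloid precursor gene, with 873, 868, 866 and 868 CPM and a CV of 0.339%, Sorbs2, an adaptor of the cytoskeleton, with a CV of 0.349%, and Papss1, which makes the sulphate donor for cartilage and other matrix, with a CV of 0.400%. CVs this far below the median are among the lowest of 13350 and were picked as such.

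**Figure D4:**
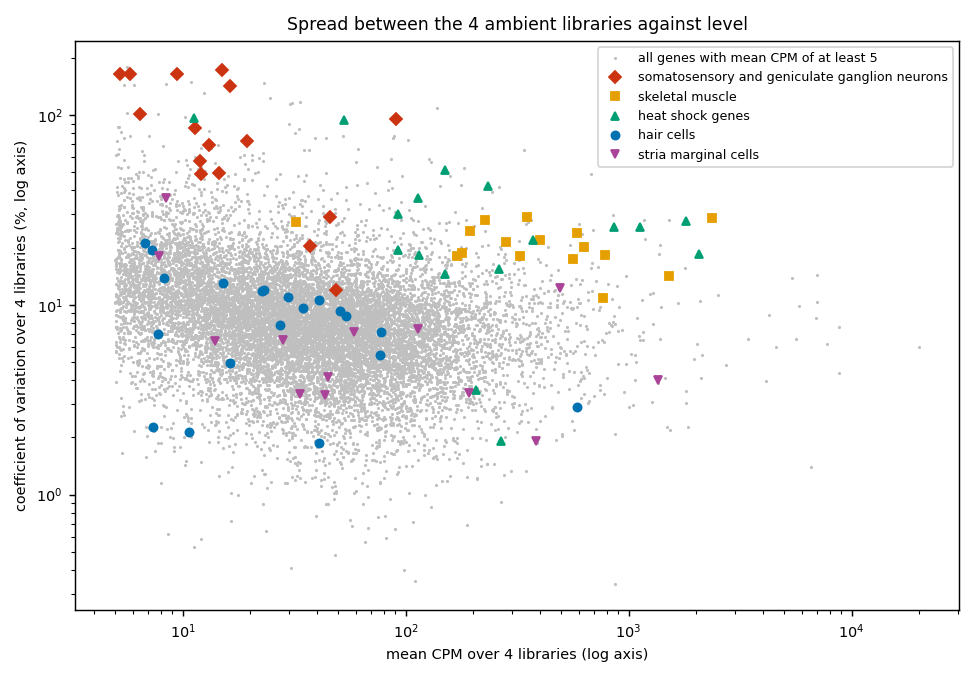
CV over the 4 libraries (percent, log axis) against mean CPM (log axis), 1 grey dot per gene with a mean of at least 5 CPM and coloured symbols for 5 marker lists. Sensory ganglion genes reach the highest CVs, and many heat shock and muscle genes lie high in the cloud or above it at their levels. Other members, such as Hspa9, do not, and most hair cell and marginal cell genes lie within the cloud.

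Replicate 4 held most of the genes with 1 library far above the other 3. Of the 13350 genes, 71 were more than 2-fold above each of the other 3 libraries in replicate 4 (on the log2(CPM + 0.5) scale), against 3 in replicate 1, 6 in replicate 2 and 0 in replicate 3. More than 2-fold below each of the others were 4 genes in replicate 1, 1 in replicate 2, 7 in replicate 3 and 0 in replicate 4. Of the 71, 11 were in the list of somatosensory and geniculate ganglion neurons, 3 in the spiral ganglion list (1 gene, Prph, in both) and 52 in no list. Scn10a, the sodium channel of pain-sensing neurons, had 0.8399, 0.4297, 4.99 and 54.1 CPM, and Scn11a, its relative, had 0.648, 0.286, 4.32 and 32.4 CPM. Trpv1, the heat and capsaicin receptor, had 0.168, 0.454, 2.28 and 18.2 CPM. In these 3 genes replicate 4 was highest, replicate 3 next and replicates 1 and 2 lowest. The peptide gene Calca (CGRP) had 1.56, 1.504, 11.9 and 50.6 CPM with the same order at the top.

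In other genes high in replicate 4, replicate 3 lay near replicate 1. Chrna3, a nicotinic receptor subunit of autonomic neurons, had 0.672, 0.167, 0.876 and 20.8 CPM, and Htr3a, a serotonin receptor, had 7.01, 4.27, 7.24 and 74.7 CPM. Ret, a receptor of the GDNF family, had 12.6, 10.05, 17.2 and 84.6 CPM. Prph had 51.2, 26.97, 66.2 and 218 CPM, Th, which makes the precursor of dopamine, had 3.84, 2.36, 4.09 and 11.5 CPM, and Gap43, a gene of growing axons, had 4.51, 3.34, 5.17 and 36.8 CPM. Over the whole list of somatosensory and geniculate ganglion genes the sum was 237, 195, 284 and 749.7 CPM, and all 19 members were highest in replicate 4. Of the 17 spiral ganglion genes highest in that library, 4 were more than 2-fold over the median of the other 3. These were Prph, Th, Stmn2 and Uchl1. Pou4f1 and Calb1, given above, were highest there by less than that, while Gata3 was lowest there. What part neurons of other ganglia had in the values of Prph, Th, Stmn2 and Uchl1 was not tested. Of 6 Hox genes with a mean of at least 1 CPM, 2 were more than 2-fold above the median of the other libraries in replicate 4, Hoxb5 with 0.071996, 0.0477, 0.0876 and 14.2 CPM and Hoxb4 with 2.71, 2.75, 2.86 and 7.52 CPM. Hoxa2, with 2.81, 2.41, 3.36 and 3.34 CPM, was not set apart there, and Hoxd8, with 4.01, 5.06, 4.64 and 3.25 CPM, was lowest there.

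Replicate 2 was highest in muscle genes. In the skeletal muscle list, 15 of 17 genes were highest in it, with a ratio of highest to lowest library of 1.52 in the sum. Acta1 had 1954, 3262, 2491 and 1744 CPM. Myh8, the perinatal myosin that adult craniofacial muscles can keep, had 2.304, 26.8, 2.803 and 1.82 CPM; the other 3 libraries lay far below replicate 2 and close together. Actc1, the cardiac actin, had 53.9, 134, 49.8 and 61.2 CPM, and Myl4, an embryonic and atrial myosin light chain, had 8.95, 19.3, 5.75 and 7.68 CPM. Nppa and Myl7, genes particular to the heart atrium, were at 0.0119 ± 0.0239 and 0.0538 ± 0.0238 CPM. Of Nppa's 865 exon bases, 532 overlap Gm13054 on the opposite strand, so its level is uncertain. Of the 7 heart muscle genes, 5 had at least 1 CPM in all 4 libraries, beside 14537 of 19089 protein-coding genes. Among the 5 was Myh6 at 11.5 ± 2.01 CPM. H19, an imprinted RNA of muscle and fetal tissue, had 113, 233, 110.2 and 116 CPM.

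Replicate 3 was lowest in cilium genes and highest in heat shock genes. Of the 56 motile cilium genes with a mean of at least 1 CPM, 46 were lowest in replicate 3. That share stands beside 22.1% of the genes with a mean of at least 5 CPM, a stricter filter. The median log2 difference of replicate 3 from the median of the other libraries was -0.59. As said above, this list was added after the data were seen. Cfap61, of the ciliary radial spoke, had 6.29, 7.28, 2.57 and 6.43 CPM, and Sec14l3, a gene of ciliated airway cells, had 31.8, 40.99, 14.98 and 31.8 CPM. Bpifa1, given above, was also lowest there.

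Replicate 1 stood apart in the pituitary genes Prl and Gh. Of the 8 pituitary, thyroid and salivary genes with a mean of at least 1 CPM, it was lowest in 4 and highest in 2. Over the 13350 genes from 5 CPM it was lowest in 25.1% and highest in 27.5%. Prl (prolactin) had 56.1, 412, 307 and 588 CPM and Gh (growth hormone) had 45.4, 204, 191 and 190.2 CPM, with replicate 1 lowest in both and all 4 libraries above the floor. Pomc, the precursor of corticotropin, had 1.27, 4.13, 3.095 and 35.2 CPM and was high in replicate 4 alone. The ribosomal protein gene Rpl23a had 140.4, 74.6, 71.7 and 62.4 CPM and CT010467.1, annotated as ribosomal RNA, had 1175, 576, 532 and 444 CPM. Both were highest in replicate 1.

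**Figure D5:**
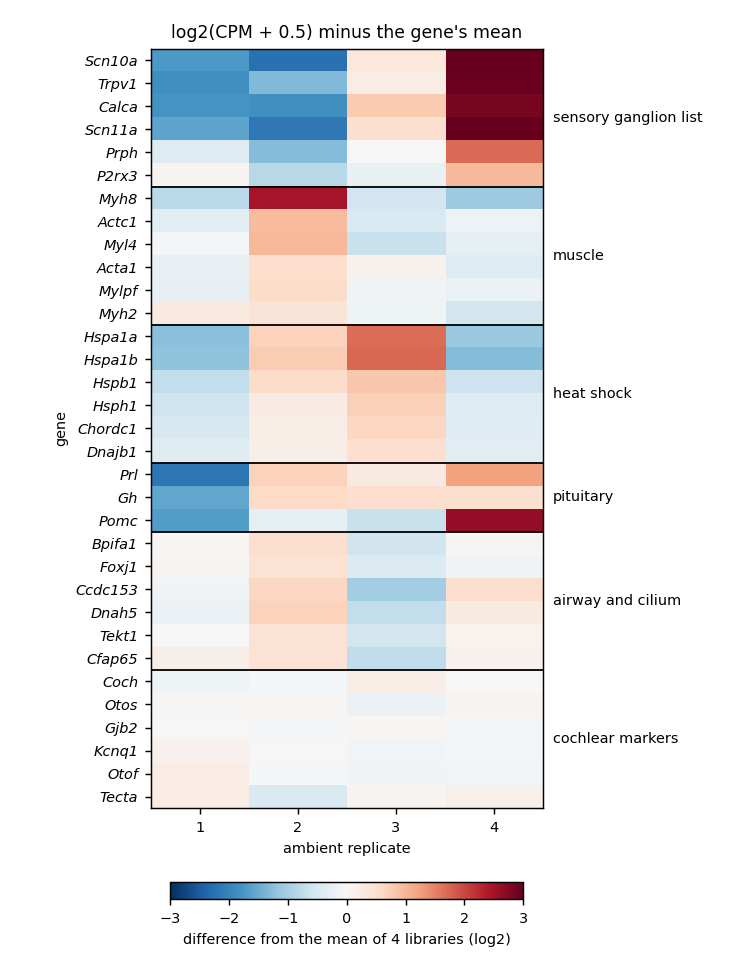
Difference of log2(CPM + 0.5) from the gene's mean over the 4 libraries, with columns for replicates 1 to 4 and rows for 33 genes in 6 groups, chosen after their values were seen. Red cells mark replicate 4 in the sensory ganglion group, replicate 2 in Myh8 and replicate 3 in the heat shock group, while the cochlear markers are near 0 in all 4 columns.

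Heat shock genes encode chaperones that refold proteins. Heat shock factor drives some of these genes through repeats of GAA and its complement in their promoters. All 17 listed genes had at least 1 CPM in each library, and 15 of 17 were highest in replicate 3. To show the motif in the genes with the widest range, the 250 bases before the start are given from RefSeq for the inducible Hsp70 genes Hspa1a (chr17:34972157-34972406, minus strand of GRCm38.p6) and Hspa1b (chr17:34959239-34959488, minus strand), and for Hspb1, a small heat shock protein (chr5:135887669-135887918, plus strand), with each match to GAANNTTC in capitals.
Hspa1a: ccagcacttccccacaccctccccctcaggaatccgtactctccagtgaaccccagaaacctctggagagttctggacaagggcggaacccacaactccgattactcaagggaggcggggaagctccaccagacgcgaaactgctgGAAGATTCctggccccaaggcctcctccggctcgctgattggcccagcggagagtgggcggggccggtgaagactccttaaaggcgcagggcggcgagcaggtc
Hspa1b: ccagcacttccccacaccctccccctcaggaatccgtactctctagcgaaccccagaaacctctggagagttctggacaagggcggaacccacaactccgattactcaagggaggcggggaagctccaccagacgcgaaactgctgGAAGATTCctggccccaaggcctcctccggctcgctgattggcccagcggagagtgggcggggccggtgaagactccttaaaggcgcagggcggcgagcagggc
Hspb1: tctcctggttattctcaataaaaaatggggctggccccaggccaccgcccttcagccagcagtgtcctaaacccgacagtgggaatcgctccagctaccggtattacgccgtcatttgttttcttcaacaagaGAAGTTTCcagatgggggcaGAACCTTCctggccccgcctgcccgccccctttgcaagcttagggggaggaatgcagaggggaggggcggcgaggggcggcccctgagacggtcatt
The motif is its own reverse complement, so both strands were searched at once. It begins 104 bases before the start in Hspa1a and Hspa1b, whose windows differ at 3 bases of 250, and 117 and 97 bases before it in Hspb1. Of the 17 genes, 12 had a promoter in the table, and 5 of their 15 promoters held the motif, the others being those of Hspd1 and Hspe1, whose windows overlap and share 1 site, beside 2199 of 32851 promoters (6.69%) in the whole table. A match is a description of the sequence and shows no binding.

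Levels of most of these genes differed between the libraries. Hspa1a had 2.98, 12.8, 25.96 and 3.34 CPM and Hspa1b had 15.4, 61.97, 120.3 and 14.5 CPM, and reads of these near-identical copies may be split or lost. In both, replicate 3 was highest, replicate 2 next, and replicates 1 and 4 lowest and close together. Hspb1 had 81.5, 197, 236 and 88.5 CPM and Hsph1, a nucleotide exchange factor of Hsp70, had 144, 259.8, 361 and 168 CPM. Hspa8, the constitutive Hsp70, had 1288, 1977, 2419.7 and 1541 CPM. Hspa5, the chaperone of the endoplasmic reticulum, whose window holds no match, had 656, 886, 1154 and 734 CPM with the same order of libraries, while Hspa9, the mitochondrial Hsp70, had 274, 269, 270.1 and 262 CPM and did not follow it. The summed level of the list was 6318, 8376, 10430.5 and 6816 CPM, a ratio of 1.65 between extremes within a single group held at ambient sound.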

How the data were processed

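The authors deposited 1 table of read counts per gene, in whole numbers and not normalised. CASAVA, STAR, featureCounts 1.5.0-p3 and build mm10 are named in the submitters' processing notes. Strand use and the handling of reads with several alignments were not given in the sources used here, so overlapping and near-identical genes are uncertain (10 list members share over 50% of their exon bases with another gene). Of 35496 genes, 35474 matched GENCODE M21 on GRCm38, the same assembly as mm10, and 22 did not (0.00390% of counts).

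CPM used TMM factors (edgeR 4.0.16, R 4.3.3); the length-scaled level divides by the union of exons and rescales all libraries to 1 total. The spread was measured as the CV over 4 libraries and as edgeR's common biological CV with an intercept alone, checked on simulated counts. Alternatives were DESeq2 1.42.0 size factors, library totals, other filters, lengths and list summaries, and each library left out. The 46 lists held 649 matched genes, and 3 lists by symbol prefix (motile cilium, collagen, Hox) were added later. Members, lists and the naming rule were chosen with earlier results of these data known. The rule took the 30 highest genes by CPM and per length, the 7 markers, the 3 highest and the lowest member of each list, the 20 largest and 10 smallest CVs from 5 CPM, the 10 genes farthest out in each library and the 5 highest per gene class. Other list members named in the text were picked after their values were seen. Some genes that the rule took are not reported here, and Ddx3y and Kdm5d were not analysed here. Promoters are RefSeq's, on GRCm38.p6.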

Additional observations from a re-analysis of the deposited data

Results flagged for a closer look

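A value was singled out where the gap between the highest or lowest library and its nearest neighbour filled more of the range of the 4 libraries than Dixon's 95% critical value allows. Chance does this in about 1 of 20 groups, and it held for 788 of the 13350 genes with a mean of at least 5 CPM (5.90%), with replicates 1 to 4 as the library set apart in 225, 134, 149 and 280 of them. Of 254 lists and genes of the text 38 met it, many of which were named for their spread. Values are CPM, with the nearest other library in parentheses.

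Replicate 4 was set apart as highest in the summed somatosensory and geniculate ganglion list at 749.7 (next 284) and in the summed Hox genes at 42.7 (next 18.8), a gap made mostly by Hoxb5 and Hoxb4. Among the neuronal genes it reached 54.1 (next 4.99) for Scn10a, 32.4 (next 4.32) for Scn11a, 18.2 (next 2.28) for Trpv1, 20.8 (next 0.876) for Chrna3 and 74.7 (next 7.24) for Htr3a. It also reached 84.6 (next 17.2) for Ret, 36.8 (next 5.17) for Gap43, 35.2 (next 4.13) for Pomc, 14.2 (next 0.0876) for Hoxb5, 7.52 (next 2.86) for Hoxb4, 8.66 (next 4.51) for Bdnf, 28.03 (next 20.3) for Gria4 and 10.6 (next 3.41) for Dcdc2a. In the stria, Kcne1 stood at 47.5 (next 44.2) in this library, highest by a small margin.

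Replicate 2 was highest in the summed heart muscle list at 174 (next 85.3), in Actc1 at 134 (next 61.2), in Myh8 at 26.8 (next 2.803), in H19 at 233 (next 116) and in Foxi1 at 7.02 (next 3.14). It was also highest in the mitochondrial pseudogene Gm29216 at 192 (next 59.1), while replicate 4 was highest in Gm28437 at 216 (next 75.4), in Gm10925 at 239 (next 100.97) and in Ucp1 at 7.39 (next 0.477). Replicate 2 was lowest in Cldn11 at 202 (next 211), a small difference. Replicate 3 was highest in the summed hearing loss genes at 15563 (next 14069), a sum of which Coch makes up 48.6%, and lowest in Otos at 744 (next 864). Replicate 1 was lowest in Gh at 45.4 (next 190.2) and highest in Gm23935 at 366 (next 76.5) and in Rpl23a at 140.4 (next 74.6).

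Genes under 1 CPM, where few reads decide the order, also met the criterion. Fgf8 stood at 0.23999 (next 0.0637) in replicate 1, Tnnc2 at 0.204 (next 0.0239) in replicate 3, and Krt1 at 0.414 (next 0.312) and Uty at 0.0955 (next 0) in replicate 4, each as the highest library. Replicate 2 was lowest in Grin2b at 0.143 (next 0.47997), in Slc6a5 at 0.0239 (next 0.0876) and in Tspear at 0.191 (next 0.5096).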

How the results depend on the processing

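The number of genes with at least 1 CPM in all 4 libraries and the mitochondrial and haemoglobin shares kept within 1.5 times or 1 SD of their values under DESeq2 size factors, plain library totals, and each library left out in turn. The rank of Coch by length-scaled level, 14, became 6 by CPM, 4 without mitochondrial and haemoglobin genes and 13 among genes of at least 200 exon bases (an alternative chosen after the data were seen), and was 13 to 14 with a library left out. The median CV of 8.06% was 24.4% with no filter on low counts and 6.79% from 50 CPM, with 7.24% to 8.10% over the libraries left out. The common biological CV of 12.3% was 15.3% and 9.78% under these 2 filters, and 10.4% (without replicate 4) to 13.1% over the libraries left out. As a mean of log2 values, the ratio of highest to lowest library was 6.05 in place of 3.85 for the sensory ganglion list, 2.80 in place of 6.498 for the pituitary list, 1.81 in place of 1.496 for the middle ear list and 1.94 in place of 1.65 for heat shock genes. With only members in no other list the middle ear ratio was 2.12.

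With a library left out these ratios ran from 1.46 (without replicate 4) to 3.85 for the sensory ganglion list, from 1.65 (without replicate 1) to 6.498 for the pituitary list, from 1.13 (without replicate 2) to 1.52 for skeletal muscle, from 1.24 (without replicate 2) to 1.496 for the middle ear list and from 1.33 (without replicate 3) to 1.65 for heat shock genes. A ratio of extremes can only stay or shrink with fewer libraries. Over all 49 lists, ratios moved by more than the spread in 46 of 195 alternatives that kept all libraries, 4 of them another scaling, and in 66 of 196 with a library left out. No paired analysis was possible because a single group was described and no test was made. At the depth of these libraries a gene under 0.0955 CPM could be missed in some of them.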

Other observations

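A few genes split the 4 libraries into pairs, and all were chosen after their values were seen. Gm18194, annotated as a transcribed processed pseudogene on chromosome 7, had 14, 2637, 12 and 1807 reads in replicates 1 to 4, so that replicates 2 and 4 were high and replicates 1 and 3 near the floor. Csrp3, a muscle LIM protein gene, had 23.7, 95.3, 96.6 and 29.05 CPM, Xirp1, of muscle junctions, had 16.4, 58.1, 51.8 and 14.2 CPM and Ankrd2, a stretch-response gene of slow muscle, had 4.296, 18.7, 19.4 and 5.99 CPM. In these 3 the high pair was replicates 2 and 3, as in the antibody segment gene Igkv15-103 with 1.68, 9.79, 8.0005 and 1.02 CPM.

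Some pseudogenes of mitochondrial origin on chromosome 1 stood high in 1 library. Gm29216 had 46.1, 192, 59.1 and 58.2 CPM, with replicate 2 highest. Gm28437 had 49.8, 69.97, 75.4 and 216 CPM and Gm10925 had 79.3, 100.97, 92.3 and 239 CPM, both with replicate 4 highest. Over the 13 protein-coding mitochondrial genes themselves the share of counts was 5.17 ± 0.216%.

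Ucp1, the uncoupling protein of brown fat, had 8, 20, 5 and 232 reads, while the fat genes Adipoq and Fabp4 had 16.5, 20.9, 19.9 and 18.5 CPM for Adipoq and 77.3, 120.05, 94.9 and 107 CPM for Fabp4 and did not follow it. Tg (thyroglobulin) had 11.02, 9.91, 10.2 and 10.8 CPM.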
